A study of Rattus norvegicus with 12 samples.

Results

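The miRNAs described here are miR-221 and miR-222, each with both arms of its hairpin. They were chosen by name, as every deposited row whose stem is miR-221 or miR-222, which gave 4 of the 753 mature miRNAs listed: rno-miR-221-3p, rno-miR-221-5p, rno-miR-222-3p and rno-miR-222-5p. Small RNA of 20 to 30 nt was sequenced from the right hippocampus of male Sprague Dawley rats, adults of P70 to P80 that were bred in-house. The rats had been injected 3 h earlier with vehicle, which was saline (4 rats), or with ethanol at 4 g/kg (8 rats). The groups shared strain, sex, age and time after injection, and each library came from 1 rat. Per the paper the sampled region was the dorsal hippocampus and each group had 8 rats, and the other vehicle rats were not analysed here. The comparison of the groups asks whether a single high dose of ethanol alters the miRNA profile of the adult hippocampus.

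MiR-221 and miR-222 are a pair of neighbouring miRNAs that are made from 1 primary transcript on the X chromosome. A miRNA hairpin is cut into a duplex of a 5p and a 3p strand, and usually one of these strands is loaded into Argonaute and kept while the other is degraded. The kept strand finds target mRNAs mainly through its seed, bases 2 to 8. The 3p strands of miR-221 and miR-222 are known for repressing Cdkn1b, the cyclin-dependent kinase inhibitor p27, and Kit, a receptor tyrosine kinase. They are well known in endothelial and smooth muscle cells and in tumours, and in neuron-like PC12 cells both are induced by nerve growth factor.

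The mature sequences are shown with the seed in capitals, because the seed divides the 4 members into 1 pair that shares a seed and 2 strands that stand alone (5′ to 3′, RefSeq, rat assembly GRCr8).
miR-221-3p: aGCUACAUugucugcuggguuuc
miR-222-3p: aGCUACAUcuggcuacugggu
miR-221-5p: aCCUGGCAuacaauguagauuuc
miR-222-5p: gGCUCAGUagccaguguagau

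The 3p strands shared their first 8 bases, and thus the seed GCUACAU, and no other rat miRNA in the RefSeq table held that seed. Counted by position from the 5′ end, 11 of 21 bases were the same in these strands. The seeds CCUGGCA of miR-221-5p and GCUCAGU of miR-222-5p were each found in no other rat miRNA of the table. The 5p strands shared no base at the start, and their longest common run was UGUAGAU, 7 bases long and near the 3′ end.

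The hairpins are shown with both mature strands in capitals, since the strands are compared within each hairpin below. Both lie on the plus strand of GRCr8, Mir222 at chrX:6022621-6022723 and Mir221 at chrX:6023182-6023290, with 458 bases between them.
Mir221: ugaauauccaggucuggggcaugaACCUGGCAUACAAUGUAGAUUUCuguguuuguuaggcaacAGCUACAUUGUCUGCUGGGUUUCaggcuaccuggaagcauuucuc
Mir222: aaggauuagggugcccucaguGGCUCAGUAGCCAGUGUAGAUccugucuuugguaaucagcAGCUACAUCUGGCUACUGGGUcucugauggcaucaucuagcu

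No other hairpin of the RefSeq table lay within 1 Mb (megabase) of the pair. In the same annotation 2 lncRNA genes overlapped the region, and the nearest named protein-coding gene before it was Chst7, a carbohydrate sulfotransferase. The deposited counts were made on another assembly (rn5, per the submitters' processing notes), so these positions describe the reference and not the authors' mapping.

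Library totals ranged from 1960702 to 4917929 counts, and the mean log2 total differed between groups by -0.38 (ethanol minus vehicle, exact permutation test, two-sided, 495 splits, p = 0.156). A floor of 3 counts, which covers counting error only, equals 0.610 to 1.53 CPM at these library totals. CPM are the counts of a miRNA scaled to a common library size, with edgeR's TMM factors for all levels of miR-221 and miR-222. Marker miRNAs of 8 cell types were read in each library, where miR-486 of blood cells was not listed under that name, and miR-1-3p and miR-206-3p, of striated muscle, were at 0 in 3 libraries and 1 library. The neuronal markers miR-124-3p, miR-9a-5p and miR-128-3p were read in every library, with summed levels of 32479 to 37404 CPM in vehicle rats and 29524 to 36928 CPM in ethanol rats. Summed choroid plexus markers were 28978 to 50267 CPM in vehicle rats and 16516 to 70880 CPM in ethanol rats. For oligodendrocytes the sums were 9193 to 17361 CPM and 9685 to 18748 CPM, for endothelium 2436 to 2913 CPM and 2207 to 2972 CPM, and for striated muscle 46.8 to 706 CPM and 37.7 to 463 CPM. Smooth muscle markers summed to 36197 to 45468 CPM and 30396 to 64979 CPM, blood cell markers to 118 to 215 CPM and 53.8 to 290.04 CPM, and microglia and leukocyte markers to 307 to 369 CPM and 250 to 432 CPM. In the members described here, vehicle rat 10 and ethanol rat 3 stood apart. By Dixon's test, which sets the gap to the nearest rat against the range, each passed the limit in 1 measure only. For vehicle rat 10 this was the ratio of miR-222-3p to miR-221-3p, and for ethanol rat 3 the level of miR-222-3p. The ethanol comparisons and the correlations between members are given with and without 1 or both of these rats. Spreads, ranks and places among other miRNAs are given with them only.

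Of the 4 members, 3 were read in every library and 1 was close to absent. MiR-221-3p had 3648 to 14112 reads per library, miR-222-3p 1507 to 6859 and miR-221-5p 355 to 1334. MiR-222-5p had 6 reads in all 12 libraries together, with 0 reads in 7 libraries, 1 read in 4 and 2 reads in 1. Together the members made up 0.266% to 0.741% of each library. Deposited counts of miR-221-3p were not whole in 5 libraries (tolerance 1e-06), with a largest fraction of 0.598 of a read, and those of the other members were whole in every library.

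The order of the levels was the same in every rat. MiR-221-3p had the highest mean, 3390 ± 1152 CPM with vehicle (SD, n = 4) and 2875 ± 639 CPM with ethanol (SD, n = 8). MiR-222-3p followed at 1423 ± 173 CPM and 1223 ± 259 CPM, and miR-221-5p at 298 ± 33.9 CPM and 265 ± 53.4 CPM (SD, n = 4 and n = 8). MiR-221-3p was above miR-222-3p, and miR-222-3p above miR-221-5p, in 12 of 12 rats, and miR-222-5p came last with at most 2 reads. A read covers a whole mature miRNA, so no scaling for length was used, and differences in ligation between sequences were not tested.

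Among the 420 miRNAs with enough reads to be tested, miR-221-3p ranked 48 by mean CPM, miR-222-3p 76 and miR-221-5p 131. The neighbours of miR-221-3p in this order were miR-125b-2-3p (3062 CPM) above and miR-29a-3p (3017 CPM) below. The former was above miR-221-3p in 7 of 12 rats and the latter in 8 of 12. MiR-222-3p lay between miR-219a-2-3p, a miRNA of oligodendrocytes (1322 CPM, above it in 8 of 12 rats), and miR-328a-3p (1239 CPM, above it in 4 of 12). MiR-221-5p lay between miR-133b-3p, a muscle miRNA (277 CPM, above it in 4 of 12), and miR-28-3p (274 CPM, above it in 5 of 12). Thus no neighbour lay on the same side of its member in every rat.

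In vehicle rats 9, 10, 19 and 20, the level of miR-221-3p was 2904, 5094, 2558 and 3003 CPM. In ethanol rats it ran from 1690.2 to 3668 CPM with a median of 2827. Vehicle rat 10 was the highest of all 12 rats and ethanol rat 3 the lowest, and 6 of 8 ethanol rats lay within the range of the vehicle rats.

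For miR-222-3p, the vehicle rats in the same order had 1369, 1638, 1225 and 1459 CPM. Ethanol rats had 698 to 1558 CPM with a median of 1279. Vehicle rat 10 was again the highest and ethanol rat 3 the lowest, with 5 of 8 ethanol rats within the vehicle range and 3 below it.

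For miR-221-5p, the passenger strand of its hairpin, vehicle rats had 307, 341, 262 and 284 CPM. Ethanol rats had 164 to 342 CPM with a median of 265. Ethanol rat 3 was the lowest here too, and the groups overlapped, with 4 ethanol rats below every vehicle rat and 1 above.

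**Figure D1:**
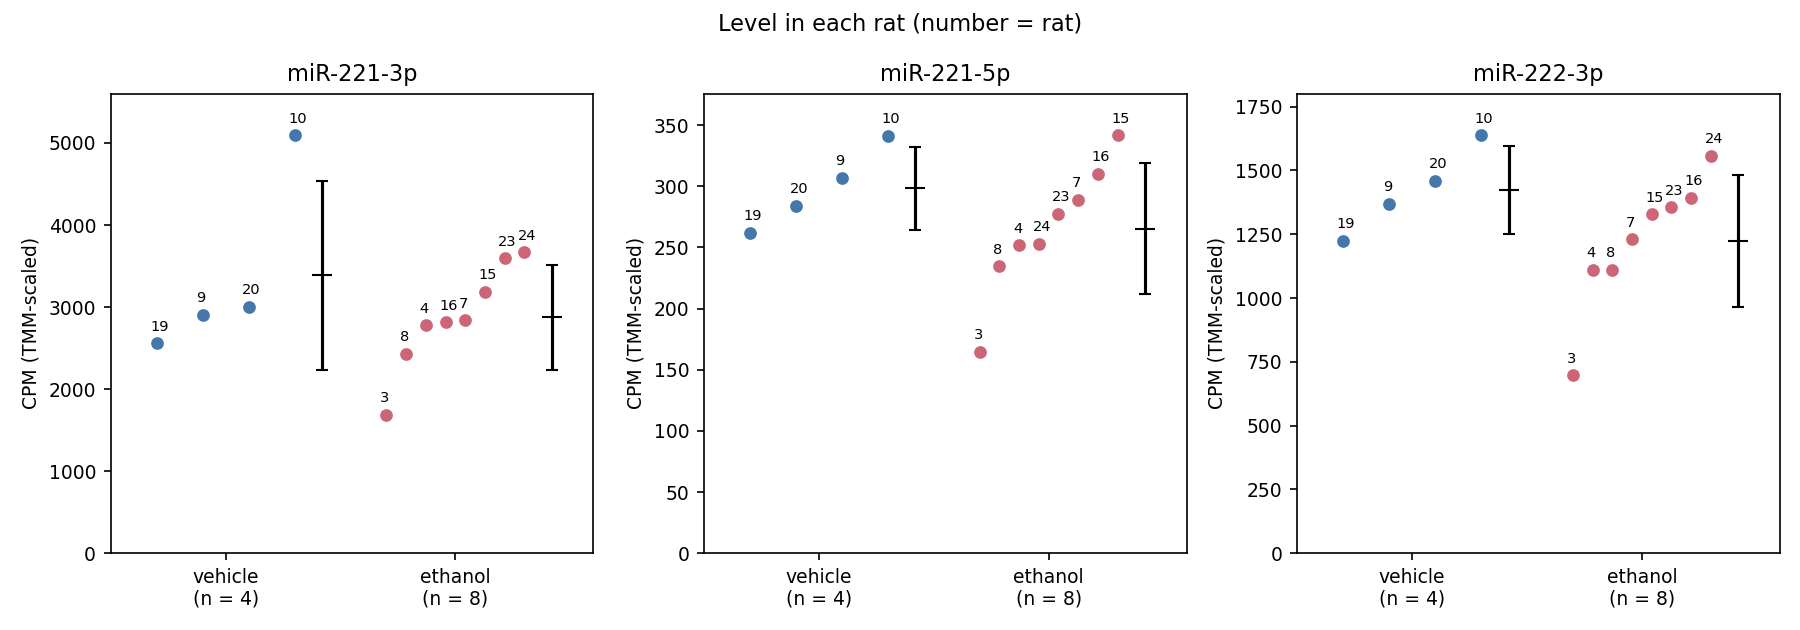
Level (CPM, TMM-scaled) of the 3 members read in every library, with 1 point per rat numbered by animal, and the mean and SD of each group as a black bar. Vehicle rat 10 lies at 5094 CPM for miR-221-3p, and ethanol rat 3 is lowest in each panel.

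The coefficient of variation over the 12 rats was 27.2% for miR-221-3p, 19.1% for miR-222-3p and 17.7% for miR-221-5p. At the depth of these libraries counting error alone gives 1.12%, 1.72% and 3.67%, and spread from the rats and from the preparation of their libraries cannot be told apart. On the log2 scale the SD of the 3 levels was 0.38, 0.32 and 0.28. Of the 184 miRNAs with a mean of at least 100 CPM, whose median SD was 0.17, these ranked 25, 32 and 37 from the most variable. These spreads and ranks include vehicle rat 10 and ethanol rat 3, which stood apart, and were not computed without them. How variable the members are among the remaining rats is thus not given.

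The 2 libraries that stood apart were placed among the 12 in each of the 8 marker lists. Vehicle rat 10 had the highest summed level of the 3 neuronal markers (37404 CPM). From the top it ranked 10 of 12 for the choroid plexus (28978 CPM), oligodendrocyte and striated muscle markers. It ranked 9 for endothelium and for blood cells, 8 for microglia and leukocytes and 7 for smooth muscle. Ethanol rat 3 had the lowest choroid plexus markers (16516 CPM). It also had the highest summed markers of blood cells (290.04 CPM) and of microglia and leukocytes (432 CPM), and ranked 2 for the smooth muscle markers miR-143-3p and miR-145-5p (64241 CPM). Its other places from the top were 3 for endothelium, 5 for striated muscle, 7 for oligodendrocytes and 9 for neurons. Any rat can lie near an end of some of 8 lists, and whether these places are unusual was not tested. The part of these cell types in the levels of miR-221 and miR-222 was not tested. In bulk tissue, fewer cells of a type and less miRNA per cell cannot be told apart.

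The ethanol comparison was fitted with edgeR's quasi-likelihood test over all 420 tested miRNAs, with Benjamini-Hochberg adjustment. None of the 3 tested members had an adjusted p under 0.05, and neither had any other miRNA (0 of 420, 0%). The limma test also gave 0, and DESeq2's Wald test gave 1, miR-133b-3p. Without ethanol rat 16 edgeR's count was 3 (miR-1b, miR-133b-3p and miR-133a-3p, all of striated muscle), with no member among them. At an unadjusted p under 0.05 the fit passed 17 of 420 miRNAs (4.05%), with 0 members among them.

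The log2 fold change of miR-221-3p was -0.24 (SE 0.21, 95% interval -0.68 to 0.21, adjusted p = 0.971). For miR-222-3p it was -0.22 (SE 0.16, interval -0.57 to 0.14, adjusted p = 0.971), and for miR-221-5p -0.17 (SE 0.16, interval -0.50 to 0.17, adjusted p = 0.971). The differences in mean log2 CPM were -0.22, -0.24 and -0.19, none with a p under 0.05 (exact two-sided permutation test, p = 0.388, 0.240 and 0.303). With 4 rats against 8 this test cannot give a p below 0.00202.

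The value for miR-221-3p rested on vehicle rat 10. Without this rat the log2 fold change was 0.03, and the other 3 vehicle rats lay between 2558 and 3003 CPM. The values for the other 2 tested members were nearest to 0 without ethanol rat 3, where they were -0.10 for miR-222-3p and -0.06 for miR-221-5p, against -0.12 for miR-221-3p. With both rats left out, an alternative chosen after their values were seen, the log2 fold changes were 0.14, -0.03 and 0.01 for miR-221-3p, miR-222-3p and miR-221-5p, and 0 miRNAs had an adjusted p under 0.05 in edgeR's test.

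**Figure D2:**
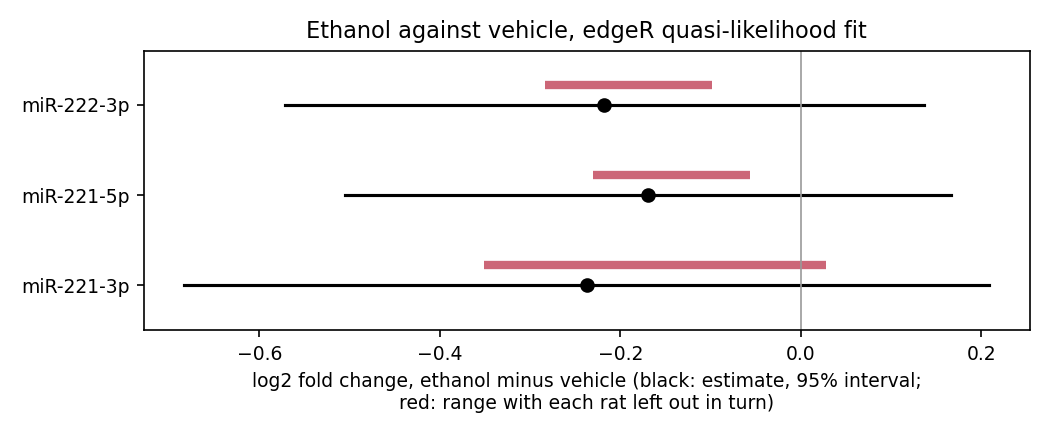
Log2 fold change (ethanol minus vehicle) of the 3 tested members, with the estimate as a black point, its 95% interval as a black line, and the range found with each rat left out in turn as a red bar. All 3 intervals contain 0, and the red bar of miR-221-3p crosses 0, reaching 0.03 without vehicle rat 10.

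MiR-222-5p was too rare to be tested. It had 3 reads in vehicle rats, in rats 19 and 20, and 3 reads in ethanol rats, with 1 each in rats 16, 23 and 24. No library exceeded the floor of 3 counts, so a difference between the groups was not detectable at this depth.

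At miR-221 the 5p strand made up 8.38% of the reads of both strands, and at miR-222 it made up 0.0125% (6 of 48140 reads, exact binomial 95% interval 0.00457% to 0.0271%). In single libraries the 5p share was 6.28% to 9.92% at miR-221 and 0% to 0.0292% at miR-222, where it was 0 in 7 libraries. How strictly the authors' counting required a read to match the listed ends of each strand is not given in the sources used here.

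For scale, 57 hairpins with both strands listed had a major strand at least as abundant as miR-222-3p over the 12 libraries. The median share of the minor strand among them was 0.174%. The share at miR-221 was exceeded by 6 of these hairpins and that at miR-222 undercut by 9, so the pair lies towards opposite ends of the range. The 6 above miR-221 were miR-148a, miR-434, miR-136, miR-126a, miR-384 and miR-151, a set picked out once the values were known. Here and below, strands were paired as a hairpin only where their names had the same stem. Strands named otherwise were left out, such as miR-125b-2-3p (3062 CPM) and miR-125b-5p (3357 CPM). A stem made from several hairpins counted as 1.

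**Figure D3:**
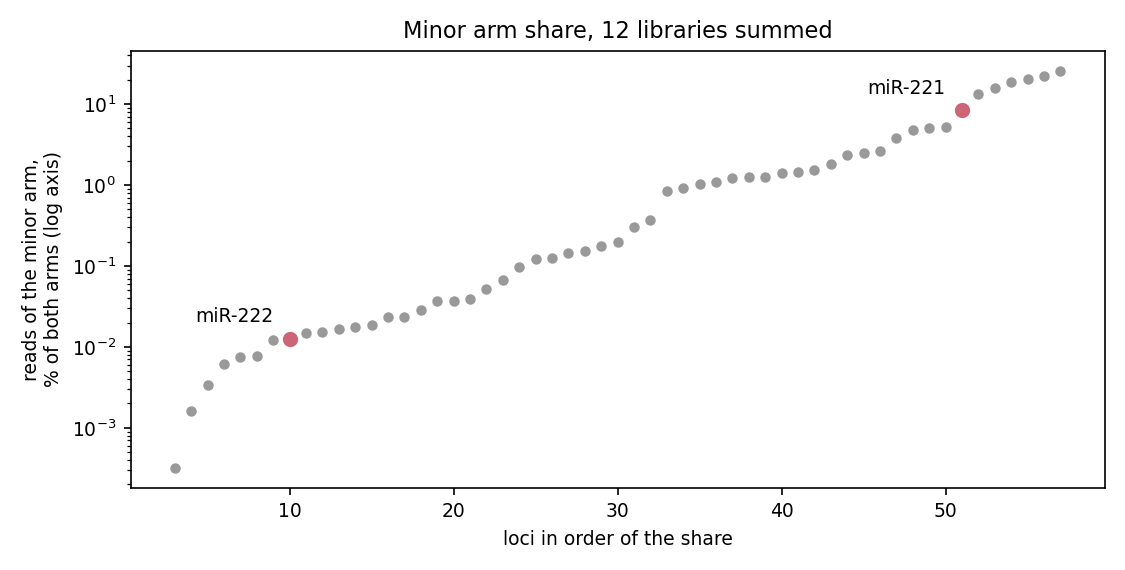
Reads of the minor strand as a percentage of the reads of both strands (log axis), 12 libraries summed, for 55 hairpins in order of this share, with 2 more at 0 not drawn. MiR-221 (8.38%) and miR-222 (0.0125%) are marked in red near opposite ends.

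The ratio of miR-221-3p to miR-221-5p reads, which needs no scaling for depth, averaged 11.2 ± 2.54 with vehicle (SD, n = 4) and 10.9 ± 1.88 with ethanol (SD, n = 8). Vehicle rats 9, 10, 19 and 20 had ratios of 9.47, 14.9, 9.76 and 10.6. In ethanol rats the ratio ran from 9.08 to 14.5 with a median of 10.3. Vehicle rat 10 and ethanol rats 23 and 24 had ratios of 14.9, 13.0 and 14.5, and the remaining 9 rats had ratios of up to 11.03.

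No difference between the groups was detected in this ratio (log2 difference -0.03, two-sided exact permutation p = 0.822). Of the 122 hairpins with both strands among the tested miRNAs, 2 (1.64%) had an exact permutation p under 0.05 for the same ratio, and miR-221 ranked 102 of them by p. Its SD over the 12 rats was 0.25 on the log2 scale, near the median of 0.29 over the 122 hairpins, and counting error accounts for about 0.06. Without vehicle rat 10 the log2 difference was 0.12.

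The ratio of miR-222-3p to miR-221-3p reads compares the 2 strands that carry the same seed. It was 0.471, 0.322, 0.479 and 0.486 in vehicle rats 9, 10, 19 and 20, and ran from 0.377 to 0.494 in ethanol rats with a median of 0.421. MiR-222-3p was thus the less abundant strand of the pair in every rat, and vehicle rat 10 was the lowest. The mean was 0.439 ± 0.0788 with vehicle (SD, n = 4) and 0.427 ± 0.0358 with ethanol (SD, n = 8), with a log2 difference of -0.03 (exact two-sided permutation p = 0.842). Without vehicle rat 10 the log2 difference was -0.17 (two-sided exact permutation p = 0.0606). Then 7 of 8 ethanol rats, with ratios of 0.377 to 0.458, lay below every remaining vehicle rat, while ethanol rat 16 lay above them. Vehicle rat 10 stands out by its value of this same ratio, so leaving it out is not a separate test of ethanol. With any other single rat left out, the two-sided exact permutation p was 0.642 to 0.997, and the sign changed without vehicle rat 9, 19 or 20.

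**Figure D4:**
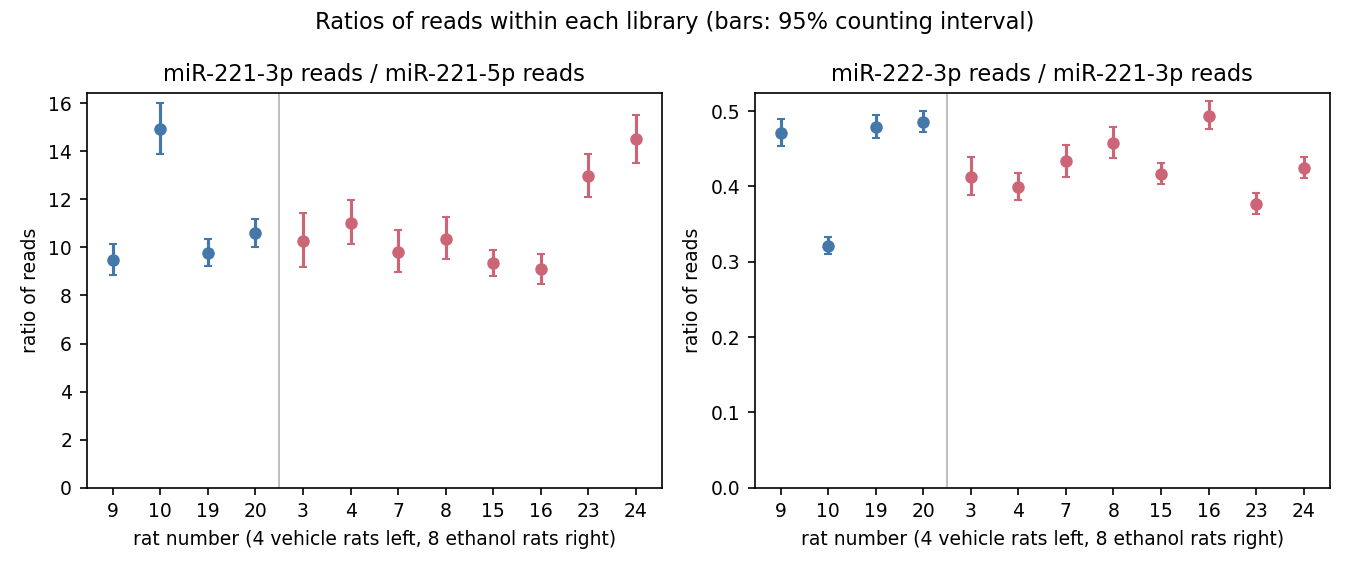
Ratio of miR-221-3p to miR-221-5p reads (left) and of miR-222-3p to miR-221-3p reads (right) in each rat, vehicle rats in blue and ethanol rats in red, with 95% counting intervals, which hold no spread between libraries or rats, as bars. Vehicle rat 10 is highest on the left, at 14.9, and lowest on the right, at 0.322.

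The 3 members that were read in every library varied together across the 12 rats. The closest pair was that of the shared seed, miR-221-3p and miR-222-3p, with a Pearson r of 0.89 (permutation p = 0.00015, adjusted p = 0.0009 over the 6 relations between members) and a Spearman rho of 0.84 (permutation p = 0.00117, adjusted p = 0.00702). With vehicle rat 10 and ethanol rat 3, the 2 rats farthest from the median of miR-221-3p, left out, r was 0.74 (permutation p = 0.0155). After each group's mean was subtracted, r was 0.88 (permutation p = 0.00013).

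The relation between the 2 strands of miR-221 was weaker. Their Pearson r was 0.77 (permutation p = 0.00759, adjusted p = 0.0152) and their Spearman rho 0.60 (permutation p = 0.0422, adjusted p = 0.0845). Without the same 2 rats r fell to 0.25 (permutation p = 0.478). Leaving out ethanol rat 3 alone gave 0.52 (permutation p = 0.0966), and leaving out vehicle rat 10 alone gave 0.75 (permutation p = 0.0221). The relation thus depended on these rats, and more on ethanol rat 3. Dropping the rats farthest from the median narrows the range of levels, which by itself tends to lower r. Ethanol rats 23 and 24, with a high ratio of 3p to 5p reads, ranked 3 and 2 of 12 from the top for miR-221-3p, at 3593 and 3668 CPM, while their miR-221-5p levels were 277 and 253 CPM.

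MiR-222-3p and miR-221-5p, which come from different hairpins and share no seed, had a Pearson r of 0.85 (permutation p = 0.00332, adjusted p = 0.00996) and a Spearman rho of 0.62 (permutation p = 0.0382, adjusted p = 0.0845). With the 2 rats farthest from the median of miR-221-5p left out, ethanol rats 3 and 15, r was 0.65 (permutation p = 0.0448). Without ethanol rat 3 alone it was 0.56 (permutation p = 0.0746), and without vehicle rat 10 and ethanol rat 3 it was 0.40 (permutation p = 0.252), so this relation rests in large part on those rats. The 3 relations with miR-222-5p had r of 0.11 to 0.41, rest on 6 reads, and are not read further.

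**Figure D5:**
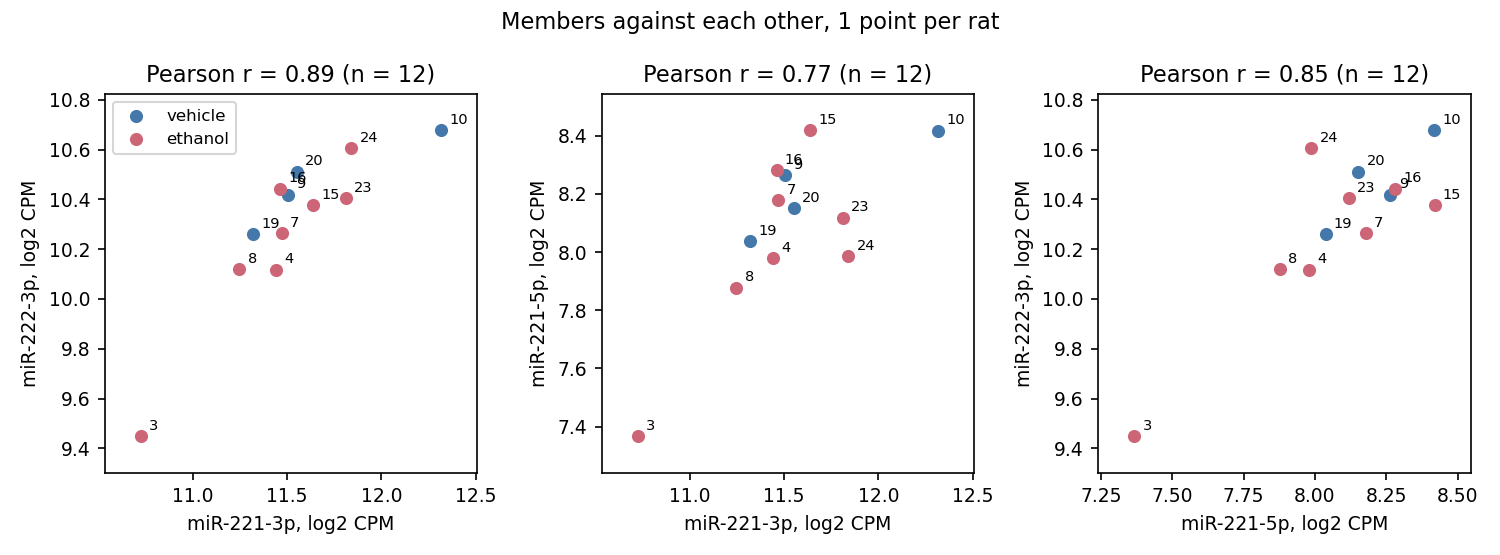
Log2 CPM of pairs of members with 1 point per rat, numbered by animal, vehicle rats in blue and ethanol rats in red. Ethanol rat 3 lies at the lower left of each panel, and Pearson's r over the 12 rats is 0.89, 0.77 and 0.85 from left to right.

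The levels of all members come from the same libraries with the same scaling factors. As a description, over all 87990 pairs of tested miRNAs the median r was -0.01, and 99.8%, 99.7% and 98.9% of pairs had a lower r than miR-221-3p with miR-222-3p, miR-222-3p with miR-221-5p and miR-221-3p with miR-221-5p. These shares include vehicle rat 10 and ethanol rat 3 and were not computed without them.

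The miRNA whose pattern over the 12 rats was most like that of miR-221-3p was miR-222-3p, among 419 others. Its r of 0.885 was close to the 0.880 of miR-138-5p, the next in place. The next were miR-138-5p, a miRNA of dendrites (r = 0.88), miR-107-3p (r = 0.85), miR-370-3p (r = 0.85) and let-7a-5p (r = 0.85), and miR-221-5p came in place 13. For miR-222-3p the closest was miR-137-3p, a miRNA of neurons (r = 0.90), followed by miR-488-3p (r = 0.89), miR-221-3p (r = 0.89), miR-98-5p (r = 0.88) and miR-218a-5p (r = 0.88), with miR-221-5p in place 7. Thus miR-137-3p and miR-488-3p had a higher r with miR-222-3p than miR-221-3p did. All these places include vehicle rat 10 and ethanol rat 3, on which correlations between the members rest in part. They were not computed without those rats. Of the 8 miRNAs from other loci named here, 0 had an adjusted p under 0.05 for ethanol in edgeR's test, as had 0 of all 420 tested miRNAs.

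Other miRNAs that share a setting with the pair were read from lists. Of the 6, 6 and 41 tested miRNAs of the 3 lists given here, 0 had an adjusted or an unadjusted p under 0.05 in edgeR's test. Over all 420 tested miRNAs 0 had an adjusted p and 17 (4.05%) an unadjusted p under 0.05 in that test, so few were to be found in lists of this size. The median log2 fold change of the 420 was -0.02. The 6 vascular miRNAs, from endothelial and smooth muscle cells, had a median of 0.17, with 4 values above 0 and 2 below. The most abundant were miR-143-3p (log2 fold change 0.25), miR-126a-5p (-0.06) and miR-126a-3p (-0.03).

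The 6 miRNAs that, like the pair, are induced by growth factors or neuronal activity had a median log2 fold change of -0.0046, with 3 values above 0 and 3 below. MiR-21-5p, which is induced in proliferating and reactive cells, had a log2 fold change of 0.18. MiR-132-3p and miR-212-3p, which are induced through CREB, had values of -0.12 and -0.15.

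Of the 101 other miRNAs found only on the X chromosome, 41 had enough reads to be tested. Their log2 fold changes ran from -0.22 to 0.45 with a median of -0.02, with 18 above 0 and 23 below. The most abundant were miR-1298 (-0.14), miR-676 (-0.12) and miR-351-5p (0.16).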

How the data were processed

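Small RNA libraries of 12 rats were analysed (4 vehicle, 8 ethanol; groups and animal numbers from the sample titles). The authors prepared 1 µg of total RNA per rat, gel-purified 20 to 30 nt RNA and sequenced 37 cycles in sets of 8 libraries; the set of each library was not analysed here. The submitters' processing notes name cutadapt, Partek and rn5, without versions. The deposited values are expected counts (estimated counts) per mature miRNA, not scaled to depth, with fractions left by the authors' counting. The counting method and miRNA annotation are not given in the sources used here.

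Counts were rounded. Species that had under 10 reads in at least 10 of the 12 libraries were dropped, leaving 420 of 753. Analyses used R 4.3.3, edgeR 4.0.16 (TMM factors, quasi-likelihood test, no covariates, Benjamini-Hochberg adjustment over the 420), limma 3.58.1 and DESeq2 1.42.0. Log2 CPM used a prior count of 2. Read ratios on the log2 scale used a pseudocount of 0.5. Single values were compared by two-sided exact permutation over 495 splits, and correlations by 100000 permutations. Intervals are at 95%. Replicates were separate rats. The fits and permutation code were tested on simulated data.

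The members and lists were chosen with earlier results of these data known. Named miRNAs are the members, the 5 most like miR-221-3p and the 5 most like miR-222-3p, the neighbours of each member in mean CPM, any miRNA with an adjusted p under 0.05, and the 3 most abundant of each list. Cell type markers, and 6 hairpins with a high share of the minor strand that were chosen after their values were seen, are named besides. One further list is not reported here. Of the 753 names, 688 matched RefSeq, including all 4 members. MiR-9-5p is listed as miR-9a-5p. Alternatives covered normalization, filter, test, rounding, depth, pseudocount, library total as a covariate and each rat left out. The groups have no animal number in common, so nothing was paired.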

Additional observations from a re-analysis of the deposited data

Results flagged for a closer look

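Single rats that stood far from their group were sought by Dixon's test in 6 measures (3 log2 levels, 2 log2 ratios and the log2 library total). Vehicle and ethanol rats were tested separately, with limits of 0.829 and 0.526 for the gap as a share of the range. Of these 12 groups, 2 held such a rat, against 0.6 by chance.

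Ethanol rat 3 was the lowest of the ethanol rats for miR-222-3p, with a log2 CPM of 9.45, while the 7 others had 10.12 to 10.61, so that the gap was 0.578 of the whole range. Vehicle rat 10 was the lowest of the vehicle rats for the ratio of miR-222-3p to miR-221-3p, at -1.64 on the log2 scale against -1.09 to -1.04 in the other 3, a gap of 0.925 of the range. The high miR-221-3p level of vehicle rat 10 did not pass the limit, with a gap of 0.767 of the range. Nor did the low miR-221-3p and miR-221-5p levels of ethanol rat 3, with gaps of 0.468 and 0.485.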

How the results depend on the processing

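Of 223 values under alternatives, 205 kept their direction and their side of the threshold. The count of miRNAs with an adjusted p under 0.05 was 0 except with DESeq2's Wald test, which gave 1 (miR-133b-3p), and without ethanol rat 16, which gave 3 (range over rats left out 0 to 3); neither included a member. Leaving out 1 rat at a time, the difference in mean log2 CPM of miR-221-3p ran from -0.34 to -0.0052, and log2 fold changes in edgeR's fit ran from -0.35 to 0.03 for miR-221-3p, from -0.23 to -0.06 for miR-221-5p and from -0.28 to -0.10 for miR-222-3p, with adjusted p of 0.807 to 0.996 over their alternatives. The log2 difference of the miR-221 strand ratio ran from -0.10 to 0.12, and that of miR-222-3p to miR-221-3p from -0.17 to 0.0297, changing sign without vehicle rat 9, 19 or 20. The strand ratio changed sign without vehicle rat 10 or ethanol rat 15 or 16. Correlations ran from 0.52 to 0.83 for miR-221-3p with miR-221-5p and from 0.56 to 0.94 for miR-221-5p with miR-222-3p, both lowest without ethanol rat 3, and from 0.81 to 0.91 for miR-221-3p with miR-222-3p. Without the 2 libraries farthest from the median, miR-221-3p with miR-221-5p had r = 0.25. Without both vehicle rat 10 and ethanol rat 3, chosen after seeing the data, log2 fold changes were 0.14 for miR-221-3p and 0.0114 for miR-221-5p, the difference in mean log2 CPM of miR-221-3p was 0.10, the strand ratio 0.13, and r was 0.25 for miR-221-3p with miR-221-5p and 0.40 for miR-221-5p with miR-222-3p (permutation p = 0.252). The cause of these shifts was not tested. Depth limits miR-222-5p alone among the members, whose difference between groups could not be read.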
